A study of Mus musculus with 6 samples.

Results

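The genes described here are 36 mouse genes for protein folding in the endoplasmic reticulum (ER) and for the unfolded protein response, out of 55385 genes in the count table. They were listed by symbol, without reference to a threshold, and all 36 were found through GENCODE release M21 and had enough reads to be tested. They fall into 15 ER chaperones and foldases, 6 genes of ER-associated degradation, 3 genes of translocation into the ER, 6 sensors and transcription factors, and 6 genes of the stress branch driven by the transcription factor Atf4. The first 24 are called the folding and secretion genes below. The data are poly(A) RNA-seq of liver from 6 males (C57BL/6 by the study's methods), with 1 library per animal. All mice entered the study at 6 to 8 weeks of age and ate a high-fat diet (HFD) for 10 weeks. They then had either a sham operation (sham replicates 1, 2 and 3) or vertical sleeve gastrectomy (VSG, removal of most of the stomach; VSG replicates 4, 5 and 6) and stayed on HFD for another 12 weeks. No lean or chow-fed library is part of the comparison, so each value describes VSG against sham in mice on the same diet. About 40 mg of liver was used per library, and total counts ran from 22804397 to 24191778.

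Proteins that a hepatocyte secretes, such as albumin, clotting factors and apolipoproteins, enter the ER through the Sec61 channel and are folded there by chaperones and disulfide isomerases. Proteins that fail to fold are returned to the cytosol and destroyed, which is ER-associated degradation. When unfolded protein accumulates, sensors in the ER membrane respond. Ern1 (IRE1α) splices the mRNA of Xbp1 into the form that encodes an active transcription factor, Atf6 is cut to release another, and Eif2ak3 (PERK) phosphorylates eIF2α, which slows translation in general and favours that of Atf4. Spliced Xbp1 and cleaved Atf6 act mainly on chaperone and degradation genes, while Atf4 acts on amino acid synthesis and, through Ddit3 (CHOP), on cell death genes. Atf4 is also reached by kinases that sense amino acid shortage, without any signal from the ER.

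Promoters of these genes carry known short response elements, and those found upstream of a start site are shown because they are the published binding elements of the branches' factors. The promoter table from RefSeq (GRCm38.p6) holds 300 bases per gene, 250 before the start and 50 from it, and it matched 32 of the 36 genes (Hyou1, Manf, Atf6 and Sec61a1 had no entry). Searched on both strands, the ER stress response element ERSE (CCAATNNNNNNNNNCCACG, bound by Atf6 and Xbp1) was present in 37 of 27025 promoters (0.137%). It was present in 9 of the 21 matched folding and secretion genes (42.9%) and in none of the 5 matched sensors and factors or the 6 genes of the Atf4 branch. ERSE begins with the CCAAT box, a common promoter element held by 41.1% of all promoters. The 10 sites of the 9 genes follow, 5′ to 3′ along the gene, with ERSE or its reverse complement in capitals and 15 flanking bases on each side.
Hspa5, chr2:34772010-34772058, plus strand: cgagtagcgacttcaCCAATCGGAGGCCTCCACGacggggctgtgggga
Hsp90b1 distal site, chr10:86705623-86705671, minus strand: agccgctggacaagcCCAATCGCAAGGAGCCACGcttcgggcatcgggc
Hsp90b1 proximal site, chr10:86705518-86705566, minus strand: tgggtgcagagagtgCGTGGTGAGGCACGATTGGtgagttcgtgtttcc
Calr, chr8:84847060-84847108, minus strand: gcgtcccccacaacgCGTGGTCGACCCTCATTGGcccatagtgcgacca
Canx, chr11:50325785-50325833, minus strand: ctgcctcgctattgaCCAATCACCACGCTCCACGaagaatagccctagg
Pdia6, chr12:17266476-17266524, plus strand: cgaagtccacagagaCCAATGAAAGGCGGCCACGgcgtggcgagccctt
Dnajc3, chr14:118937812-118937860, plus strand: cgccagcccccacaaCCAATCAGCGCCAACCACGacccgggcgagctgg
Creld2, chr15:88819505-88819553, plus strand: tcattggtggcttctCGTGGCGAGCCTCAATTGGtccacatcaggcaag
Derl3, chr10:75893227-75893275, plus strand: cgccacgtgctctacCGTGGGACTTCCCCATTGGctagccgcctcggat
Syvn1, chr19:6046517-6046565, plus strand: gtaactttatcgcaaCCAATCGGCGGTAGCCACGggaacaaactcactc

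The sites lay between 212 and 26 bases before the start, closest in Syvn1 and farthest in the distal site of Hsp90b1, the gene with a pair of sites. The C/EBP-ATF response element CARE (TGATGNAA, bound by Atf4 with a C/EBP partner) was found in 4.51% of all promoters. It was found in 3 of the 6 genes of the Atf4 branch (Asns, Chac1 and Trib3) and in 1 folding and secretion gene, Herpud1. Herpud1 also carried ERSE-II (ATTGG and CCACG with 1 base between them), an element present in 0.0444% of all promoters and otherwise found among the 36 genes in Dnajb11. The UPRE letters TGACGTGG, in 0.714% of promoters, were found in none of the 32. The upstream sites of the Atf4 branch genes and of Herpud1 are printed below with the element in capitals. ERSE, ERSE-II and UPRE share the letters CCACG or its reverse complement, and a match of letters is a description and not a site of binding.
Asns CARE, chr6:7693210-7693247, minus strand: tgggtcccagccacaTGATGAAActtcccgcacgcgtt
Chac1 CARE, chr2:119351034-119351071, plus strand: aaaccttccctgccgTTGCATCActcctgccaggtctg
Herpud1 CARE, chr8:94386302-94386339, plus strand: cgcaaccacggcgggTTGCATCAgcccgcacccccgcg
Herpud1 ERSE-II, chr8:94386362-94386402, plus strand: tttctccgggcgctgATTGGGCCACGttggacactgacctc

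Of the 24 folding and secretion genes 5 were higher in VSG than in sham livers, as were 3 of the 6 sensors and factors and 2 of the 6 Atf4 branch genes. By edgeR's quasi-likelihood test with Benjamini-Hochberg adjustment over all 14454 genes tested, 10 of the 36 genes rose (adjusted p under 0.05) and 0 fell. Of all genes tested, 6.79% rose and 7.87% fell, 14.7% in all. The 10 genes were Xbp1, Asns, Selenos, Ern1, Hyou1, Creb3l2, Sdf2l1, Dnajc3, Atf4 and Dnajb11. The log2 fold change (log2FC, VSG over sham) was positive in 30 of the 36 and negative in 6, with a median of 0.58 against 0.03 over all genes tested. The 3 VSG libraries lay above the 3 sham libraries in 20 of the 36, and below them in 0. Of all genes 39.7% had no overlap between the groups, 19.8% upward and 19.8% downward. At an unadjusted p under 0.05, which 33.9% of all genes passed, 21 of the 36 were higher and 2 lower. DESeq2 called 18 higher and 0 lower, where it called 8.99% of all its genes higher. Counts scaled by total reads in place of TMM factors moved the median of all genes to -0.11 and left 6 of the 36 called higher, against 3.36% of all genes. With that scaling the share of higher genes among all calls went from 46.3% to 24.3%. In bulk liver RNA, fewer cells of a type and less RNA per cell cannot be told apart.

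**Figure D1:**
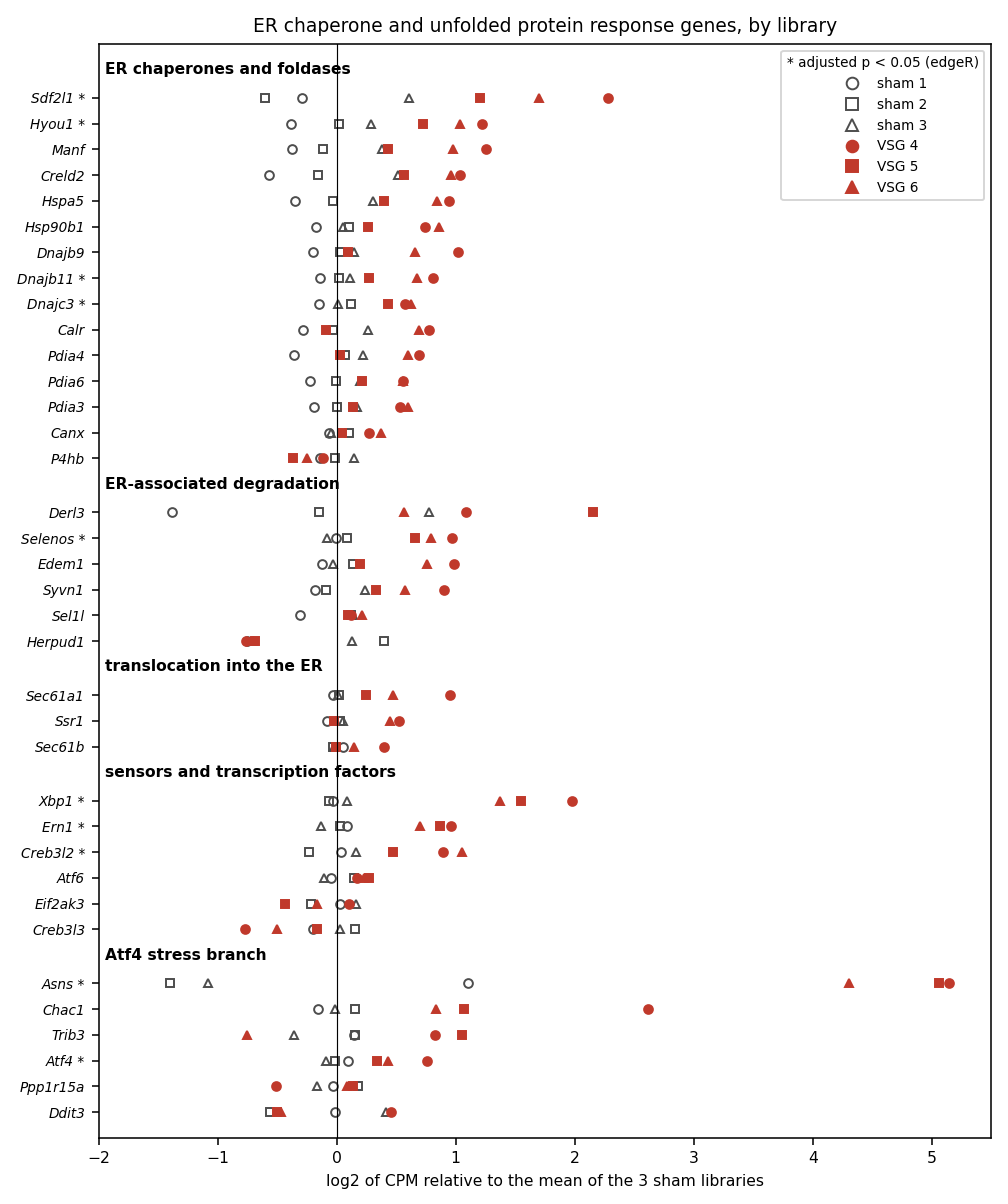
Each gene's CPM (counts scaled to library size with TMM factors) in each library on a log2 scale relative to the mean of the 3 sham libraries, grouped by role and ordered by log2FC; open symbols are sham, filled symbols VSG, and an asterisk marks an adjusted p under 0.05 by edgeR. Most chaperones have sham 1 at the left and VSG 5 as the leftmost VSG library, while Herpud1, P4hb and Creb3l3 lie to the left after VSG.

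Among the ER chaperones and foldases, 4 of 15 rose, 14 had a positive log2FC and the median was 0.60. Sdf2l1, a cofactor that keeps substrates of the main ER chaperone from aggregating, was measured at 5.91, 4.75 and 10.98 CPM in the sham libraries. In the VSG libraries it was measured at 35.0, 16.6 and 23.4 CPM. Every VSG value lay above every sham value, and the log2FC was 1.79 (SE 0.388, adjusted p 0.0306, edgeR). Hyou1, a large Hsp70-type chaperone that also exchanges nucleotide on Hspa5, had 86.5, 114 and 138 CPM in sham and 263, 186 and 232 CPM after VSG. It was 2.01-fold higher (log2FC 1.01, SE 0.210, adjusted p 0.0279). Dnajb11, an ER DnaJ protein that hands unfolded clients to Hspa5, had 64.4, 72.0 and 76.9 CPM in sham and 125, 85.8 and 114 CPM after VSG (log2FC 0.60, SE 0.158, adjusted p 0.0485). Dnajc3 (p58IPK), a DnaJ protein of the ER also known as an inhibitor of eIF2α kinases, had 197, 236 and 220.01 CPM in sham and 325, 294 and 335 CPM after VSG (log2FC 0.55, SE 0.127, adjusted p 0.0354).

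Hspa5 (BiP), the main Hsp70 chaperone of the ER and the usual marker of its stress, was measured at 478, 597 and 755 CPM in sham and 1174, 804 and 1094 CPM after VSG. The groups did not overlap, but the lowest VSG library came close to the highest sham library, and the adjusted p was 0.0762 (log2FC 0.75, SE 0.235). Hsp90b1 (GRP94), the ER member of the Hsp90 family, had 584, 708 and 681 CPM in sham and 1100.3, 791 and 1191 CPM after VSG (log2FC 0.64, SE 0.202, adjusted p 0.0759). Its exons overlap 415 bases of a pseudogene on the other strand, which had 543 counts in all libraries against 117025 for Hsp90b1. Manf and Creld2, small ER stress-inducible proteins, had log2FC of 0.93 (adjusted p 0.0611) and 0.87 (adjusted p 0.0810), and in both the groups did not overlap. The exons of Manf, with 10024 counts in all libraries, overlap 146 bases of Dcaf1 on the other strand (5818 counts). They also overlap 14 bases of Rbm15b on the same strand (2904 counts). Both Hspa5 and Hsp90b1 had an adjusted p under 0.05 by DESeq2, at 0.0168 and 0.0152.

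The lectin chaperones and the disulfide isomerases gave smaller values. Calreticulin (Calr), which holds newly made glycoproteins, had 492, 586 and 718 CPM in sham and 1026, 562 and 968 CPM after VSG, so that VSG 5 lay inside the sham range (log2FC 0.51, SE 0.272, adjusted p 0.232). Its membrane-bound partner calnexin (Canx) had a log2FC of 0.24 (adjusted p 0.286). The isomerases Pdia3, Pdia4 and Pdia6 had log2FC of 0.44 (adjusted p 0.137), 0.47 (0.194) and 0.45 (0.0964). P4hb, the founding disulfide isomerase, was the chaperone with a negative value. It had 1418, 1543 and 1725 CPM in sham and 1445, 1209 and 1312 CPM after VSG (log2FC -0.24, SE 0.174, adjusted p 0.361). Dnajb9, a DnaJ protein that represses Ern1, had a log2FC of 0.64 (adjusted p 0.107). The 11 chaperones that did not pass the test had adjusted p-values from 0.0611 to 0.361.

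**Figure D2:**
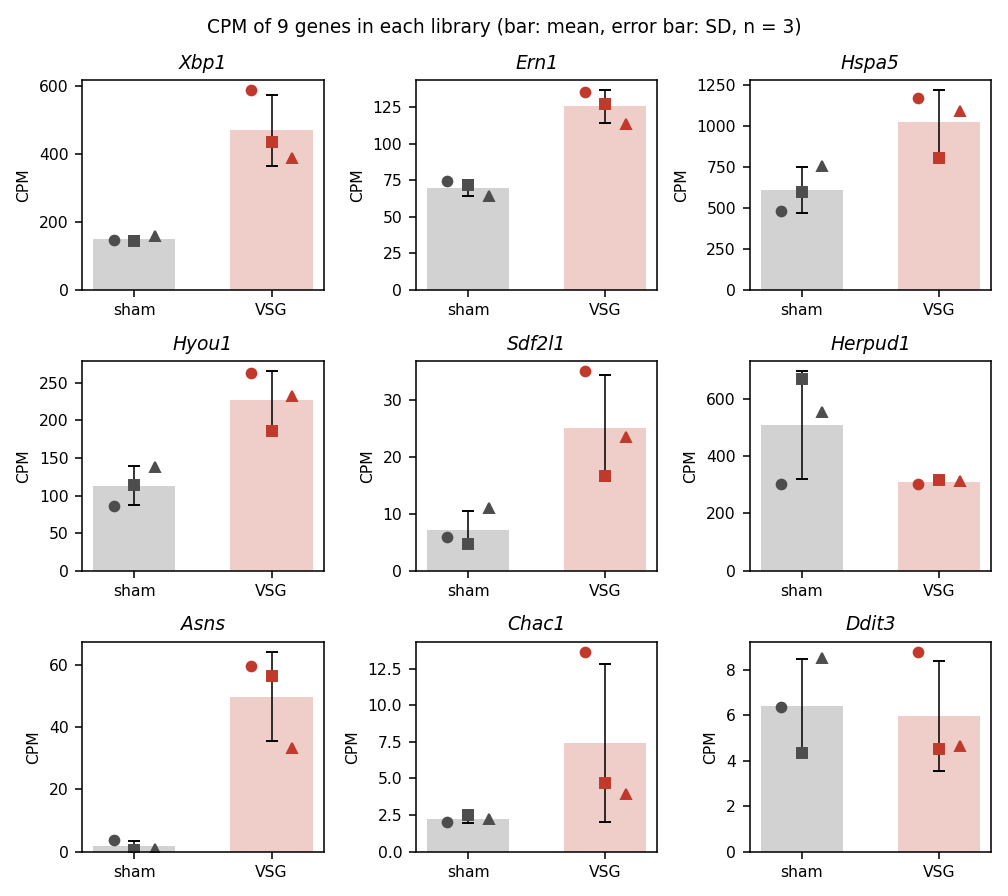
CPM of 9 genes in each library on linear axes from 0; points are libraries, with circle, square and triangle for replicates 1, 2, 3 in sham and 4, 5, 6 in VSG, bars are group means and error bars SD (n = 3). Xbp1, Ern1, Hyou1, Sdf2l1 and Asns separate the groups clearly, Hspa5 and Chac1 separate them narrowly, the VSG libraries of Herpud1 sit together at 301 to 317 CPM, and Ddit3 overlaps.

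In ER-associated degradation 1 of 6 genes rose. Selenos, a selenoprotein of the ER membrane that recruits the p97 ATPase, had 36.8, 39.2 and 34.9 CPM in sham and 72.2, 58.4 and 64.1 CPM after VSG. Both groups were tight, and the log2FC was 0.81 (SE 0.108, adjusted p 0.0101, edgeR). Syvn1 (HRD1), the ubiquitin ligase at the centre of the pathway, and Edem1, which marks misfolded glycoproteins for removal, had log2FC of 0.62 (adjusted p 0.0632) and 0.68 (adjusted p 0.0735) with no overlap between groups. The exons of Syvn1 overlap 91 bases of Mrpl49 on the other strand, which had 3648 counts in all libraries against 10131 for Syvn1. Sel1l, the partner that stabilises Syvn1, had a log2FC of 0.14 (adjusted p 0.530). Derl3, a derlin of the retrotranslocation channel, was the least abundant of the 36 genes per length, with 0.406, 0.959 and 1.82 CPM in sham and 2.26, 4.74 and 1.57 CPM after VSG, and the groups overlapped (adjusted p 0.155).

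Herpud1, a ubiquitin-like protein of the same ligase complex (chr8:94386438-94395377, plus strand, GRCm38), had the most negative value of the 36 genes. It was measured at 302, 669 and 555 CPM in sham and 301, 317 and 312 CPM after VSG. The VSG libraries were almost equal, while sham 1 stood at the VSG level and sham 2 and 3 lay far above it. The log2FC was -0.71 (SE 0.281) with an adjusted p of 0.128. Without sham replicate 1 the adjusted p was 0.0304, so 1 library decides whether Herpud1 fell. Of the 3 translocation genes, Sec61a1, the pore subunit of the channel, had 134, 139.6 and 138 CPM in sham and 266, 163 and 191 CPM after VSG (log2FC 0.59, SE 0.187, adjusted p 0.0782). The channel's small subunit Sec61b and the translocon-associated Ssr1 had log2FC of 0.19 and 0.33 (adjusted p 0.343 and 0.193), and in both VSG 5 lay inside the sham range.

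Of the 6 sensors and transcription factors, 3 rose, all from the Ern1 arm or the Creb3 family. Xbp1 (chr11:5520659-5525893, plus strand, GRCm38) was measured at 146, 143 and 158 CPM in sham and 588, 436 and 387 CPM after VSG. The lowest VSG library lay far above the highest sham library, and the log2FC was 1.66 (SE 0.183, adjusted p 0.00698, edgeR), a 3.15-fold difference. Counts per gene do not separate the spliced from the unspliced mRNA, so they do not show how much active Xbp1 was made. Ern1, the kinase and RNase that splices Xbp1, had 74.2, 71.4 and 63.8 CPM in sham and 136, 127 and 114 CPM after VSG (log2FC 0.85, SE 0.113, adjusted p 0.0103). Creb3l2, a membrane-bound factor related to Atf6 that acts on secretory pathway genes, had 42.7, 35.4 and 46.5 CPM in sham and 77.3, 57.7 and 86.4 CPM after VSG (log2FC 0.83, SE 0.176, adjusted p 0.0294).

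The other sensors gave small values. Atf6 had 113, 129 and 109 CPM in sham and 131, 141 and 137 CPM after VSG, without overlap but by a narrow margin (log2FC 0.22, SE 0.108, adjusted p 0.193). Eif2ak3, the kinase upstream of Atf4, had 29.1, 24.6 and 32.1 CPM in sham and 30.7, 21.2 and 25.5 CPM after VSG (log2FC -0.15, SE 0.166, adjusted p 0.549). Creb3l3 (CREBH), the liver-enriched relative of Creb3l2 that acts on acute phase, iron and triglyceride genes, had 268, 341 and 313 CPM in sham and 179.9, 274 and 217 CPM after VSG. VSG 5 lay just above the lowest sham library, and the log2FC was -0.46 (SE 0.187, adjusted p 0.137). Of 11 genes listed as published Creb3l3 targets, 3 rose and 2 fell, with a median log2FC of -0.35. The acute phase genes Apcs, Hamp (hepcidin) and Crp rose, with log2FC of 4.02, 2.74 and 0.89, and the lipid genes Cidec and Apoa4 fell, with -6.47 and -3.45. Hamp was not called when sham replicates 2 or 3 or VSG replicates 4 or 6 were left out (adjusted p at most 0.112), and Crp when sham replicates 1 or 3 or VSG replicate 6 were (at most 0.106).

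Of the 6 genes of the Atf4 branch, 2 rose, and the branch was uneven. Asns, asparagine synthetase (chr6:7675169-7693254, minus strand, GRCm38), had the largest change of the 36 genes. It was measured at 3.62, 0.640 and 0.798 CPM in sham (98, 14 and 21 counts) and 59.7, 56.4 and 33.3 CPM after VSG (1319, 1319 and 699 counts). The highest sham library was at 3.62 CPM and the lowest VSG library at 33.3 CPM, and the log2FC was 4.85 (SE 0.644, adjusted p 0.0101, edgeR), or 6.09 without sham replicate 1. Atf4 itself had 65.5, 60.7 and 57.6 CPM in sham and 104, 77.4 and 82.4 CPM after VSG (log2FC 0.52, SE 0.134, adjusted p 0.0463). Since Atf4 is controlled mostly at translation, its mRNA is no measure of the protein. Chac1, an enzyme that breaks down glutathione, had 1.99, 2.47 and 2.20 CPM in sham and 13.6, 4.66 and 3.96 CPM after VSG. VSG 4 stood apart, and the adjusted p was 0.0599 (log2FC 1.74, SE 0.493). Without VSG replicate 4 the log2FC was 0.96.

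The remaining genes of the branch overlapped between groups. Trib3, a pseudokinase that restrains insulin signalling and Atf4, had 8.90, 8.95 and 6.27 CPM in sham and 14.3, 16.7 and 4.77 CPM after VSG, so that VSG 6 was the lowest of all (log2FC 0.57, SE 0.433, adjusted p 0.383). Ddit3 (CHOP), the pro-apoptotic factor downstream of Atf4, had 6.35, 4.34 and 8.51 CPM in sham and 8.78, 4.53 and 4.63 CPM after VSG (log2FC -0.10, SE 0.348, adjusted p 0.857). Its exons overlap 68 bases of Mars on the other strand, a gene with 7810 counts in all against 888 for Ddit3. Ppp1r15a (GADD34), the subunit that directs a phosphatase to eIF2α, had 9.75, 11.3 and 8.89 CPM in sham and 7.01, 10.99 and 10.6 CPM after VSG (log2FC -0.06, SE 0.202, adjusted p 0.841). With standard errors of 0.348 and 0.433, a change as large as the chaperone median of 0.60 was not detectable in Ddit3 or Trib3.

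The comparison of the folding and secretion genes with the Atf4 branch was made by library, as the mean over each group's genes of log2 CPM relative to the 6-library mean. For the 24 folding and secretion genes this mean was -0.54, -0.26 and -0.07 in sham and 0.48, 0.05 and 0.33 in VSG livers, 0.57 higher after VSG. For the Atf4 branch it was -0.34, -0.78 and -0.75 in sham and 1.01, 0.66 and 0.20 in VSG livers, 1.25 higher after VSG. Both means separated the groups. The Atf4 value rested largely on Asns, since without it the mean was -0.20, -0.22 and -0.25 in sham and 0.63, 0.22 and -0.18 in VSG livers, 0.44 higher. VSG 6 then lay just above the sham libraries. The folding mean minus the Atf4 mean was -0.19, 0.53 and 0.68 in sham and -0.53, -0.61 and 0.13 in VSG livers. On that difference the groups overlapped, with means of 0.34 ± 0.468 and -0.34 ± 0.407 (SD, n = 3). Its sign rested on Asns: VSG minus sham was -0.68 with Asns and 0.13 without it, a version added after the values were seen, and the groups overlapped there too. By medians of the log2FC the groups of genes were close, at 0.60 for folding and secretion (5 of 24 rose) and 0.55 for the Atf4 branch (2 of 6 rose). No p is given for these means, and 3 libraries against 3 cannot go below 0.1 in an exact permutation test.

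**Figure D3:**
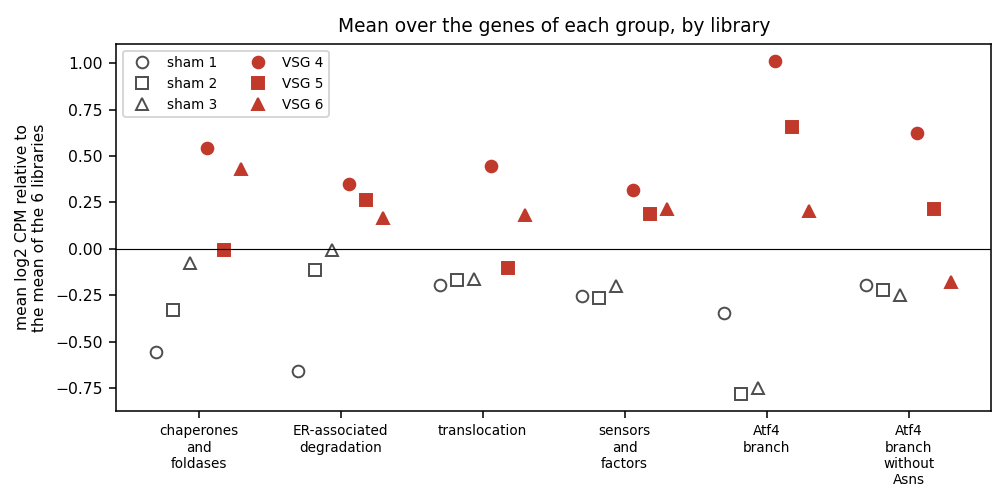
Mean over each group's genes of log2 CPM relative to the mean of the 6 libraries, 1 symbol per library (open sham, filled VSG). Sham and VSG libraries separate in every group shown, VSG 5 is the lowest VSG library for chaperones and translocation, and VSG 6 is the lowest for the Atf4 branch with and without Asns.

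The order of the libraries within each group was much alike over the 24 folding and secretion genes. Sham 1 was the lowest sham library in 21 of the 24, against 36.6% of all genes tested, and VSG 5 was the lowest VSG library in 22 of the 24, against 36.1%. In all 15 chaperones VSG 5 was the lowest of its group. In 7 of the 24 genes VSG 5 was the only VSG library that did not exceed every sham library, and VSG 4 was so in 0 genes and VSG 6 in 1. Over all genes tested this held for 8.66% with VSG 5, 4.49% with VSG 4 and 4.03% with VSG 6. Without VSG replicate 5, 13 of the 24 rose, among them Hspa5 (adjusted p 0.0484), Hsp90b1 (0.0321), Dnajb9 (0.0235), Edem1 (0.0175) and Manf (0.0284). No value in the labels sets VSG 5 apart from VSG 4 and 6. Of all genes 8.83% then rose. Without any 1 of the other libraries 0 to 1 of the 24 rose, and of all genes tested 3.08%, 2.03% and 0.323% rose without sham replicates 1, 2 and 3 and 3.37% and 0.609% without VSG replicates 4 and 6.

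Of the 10 genes that rose, Xbp1 kept its call when each of the 6 libraries was left out in turn, and its adjusted p reached at most 0.0489. Asns, Ern1 and Selenos lost their calls without sham replicate 3 (adjusted p 0.0556, 0.0631 and 0.0626), and Selenos also without VSG replicate 6 (0.0536). Their log2FC without sham replicate 3 was 4.51, 0.78 and 0.77. Of all genes tested 0.323% rose in that fit, against 6.79% with all libraries. Hyou1, Sdf2l1, Creb3l2, Dnajc3, Dnajb11 and Atf4 kept their calls only in the fit that left out VSG replicate 5. In the other fits with 1 library left out their adjusted p reached at most 0.172. With total counts in place of TMM factors Dnajc3, Creb3l2, Atf4 and Dnajb11 were not called. Dnajb11 and Atf4 were also not called with limma-voom (adjusted p 0.0535 and 0.0504) or with no filter (0.0520 and 0.0597), nor were Dnajb11 with RLE factors (0.0505) and Dnajc3 with no filter (0.0683).

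Levels between genes can be compared only per length of exon, as FPKM (CPM per kilobase of exon, computed here from the counts). By mean FPKM in sham livers P4hb was highest at 546 ± 53.9 (SD, n = 3), followed by Herpud1 at 218 ± 80.5, Calr at 208 ± 39.5, Hsp90b1 at 163 ± 16.1 and Hspa5 at 144 ± 32.8. The ranges of mean ± SD overlapped among the last 4. In VSG livers the order was P4hb at 462 ± 41.3, Calr at 296 ± 87.9, Hsp90b1 at 255 ± 52.0 and Hspa5 at 242 ± 46.0, and these ranges overlapped among the last 3. Xbp1 went from 45.9 ± 2.54 to 145 ± 32.2 FPKM, from below Canx (92.7 ± 6.18) to above it (109 ± 12.2), with overlapping spreads after VSG. Asns went from 0.616 ± 0.613 to 18.2 ± 5.25 FPKM, from next to the lowest of the 36 genes.

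The presence of ERSE was set beside the change in expression, as a description. The 9 genes with ERSE all had a positive log2FC, with a median of 0.62, and 1 of the 9 (Dnajc3) rose. The 15 folding and secretion genes with no ERSE match or no promoter entry had a median of 0.59, and 4 of the 15 rose. Of these 4, Hyou1 had no promoter entry and Dnajb11 carried ERSE-II. Sdf2l1 and Selenos had a promoter entry with neither ERSE nor ERSE-II. The 15 are thus not a set shown to lack such elements. Of the 28 genes outside the 36 that carried ERSE, 10 were tested, with a median of 0.17. Ero1lb (Ero1b in RefSeq), Acnat2 and Pan2 rose among them (log2FC 0.78, 0.71 and 0.32) and Acacb fell (-2.27). Of the 4 genes with CARE, Asns rose, and Chac1, Trib3 and Herpud1 did not pass the test (log2FC 1.74, 0.57 and -0.71).

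Other genes of these pathways were counted from lists of their own. Of 24 other ER folding factors 5 rose and 1 fell (25%), with a median log2FC of 0.30. Pdia5, a disulfide isomerase, had 36.2, 34.9 and 29.7 CPM in sham and 66.3, 82.4 and 90.7 CPM after VSG (log2FC 1.25, SE 0.144, adjusted p 0.00742), and VSG 5 was not its lowest VSG library. Hspa13, an Hsp70 of microsomes, and Ero1lb, an oxidase that recharges disulfide isomerases, rose with log2FC of 0.79 and 0.78, as did Uggt1 and Ppib (0.55 and 0.44), and Sumf1, which activates sulfatases, fell with -0.36. Of 29 translocon, signal peptidase and oligosaccharyltransferase subunits, Spcs2 and Krtcap2 rose (0.75 and 0.48), and the median was 0.26. Of 35 vesicle coat and cargo receptor genes 2 rose (Tmed9 and Sec23b, 0.62 and 0.52) and 3 fell (Sar1b, Sec23a and Yif1a, -0.94, -0.48 and -0.40), with a median of -0.00305. These shares of 6.90% and 14.3% called in the translocon and vesicle lists lie near the 14.7% of all genes or below it. Of 25 other ER-associated degradation factors Edem3 and H13 rose (0.46 and 0.42), and the median was 0.05. The share called in this list, 8.0%, also lies below the 14.7% of all genes. When VSG replicate 5 was left out, the genes that rose numbered 6, 2 and 2 in the translocon, vesicle and degradation lists, and 3 vesicle genes fell. Without any 1 of the other libraries 0 genes rose in the 3 lists, and the vesicle genes that fell numbered 1 without sham replicate 1 and 0 otherwise. With total counts in place of TMM factors 0 genes rose in the 3 lists, and 4 vesicle genes and 1 degradation factor fell.

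Of 35 other Atf4 targets 5 rose and 2 fell (20%), with a median log2FC of 0.21. Cebpg, a partner of Atf4 on CARE, had 68.7, 68.0 and 64.9 CPM in sham and 127, 114 and 107 CPM after VSG (log2FC 0.79, SE 0.101, adjusted p 0.00941). The tRNA synthetase genes Cars, Nars, Eprs and Tars rose with log2FC of 0.67, 0.51, 0.51 and 0.48. Gdf15, a secreted stress hormone, had 9.60, 25.03 and 12.3 CPM in sham and 7.33, 4.10 and 3.58 CPM after VSG, and it fell with a log2FC of -1.64 (SE 0.434, adjusted p 0.0498). Vldlr, a lipoprotein receptor, fell with -2.23 (adjusted p 0.0414). With 1 library left out Gdf15 was called in none of the 6 fits (adjusted p 0.0509 to 0.155) and Vldlr only without sham replicate 1 or VSG replicate 5, and limma-voom called neither (0.0756 and 0.0610). With total counts 2 of these targets rose and 3 fell. None of 6 eIF2α kinases and phosphatase subunits had an adjusted p under 0.05 by edgeR or DESeq2, and 1 had an unadjusted p under 0.05. Outside the ER, Hspb1 fell (-1.75) among 18 cytosolic heat shock genes and none rose. The share called there, 5.56%, lies below the 14.7% of all genes. Hspb1 was low, with a mean of 4.40 CPM in sham and 1.30 CPM after VSG. Trap1, Spg7 and Lonp1 fell (-0.80, -0.76 and -0.61) among 12 mitochondrial chaperones and proteases. Of the genes named from these folding, Atf4, heat shock and mitochondrial lists, Pdia5 and Spg7 kept their calls without each library in turn, and the number of other ER folding factors that rose then ran from 1 to 8 and that of other Atf4 targets from 0 to 4, with 0 to 2 that fell.

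**Figure D4:**
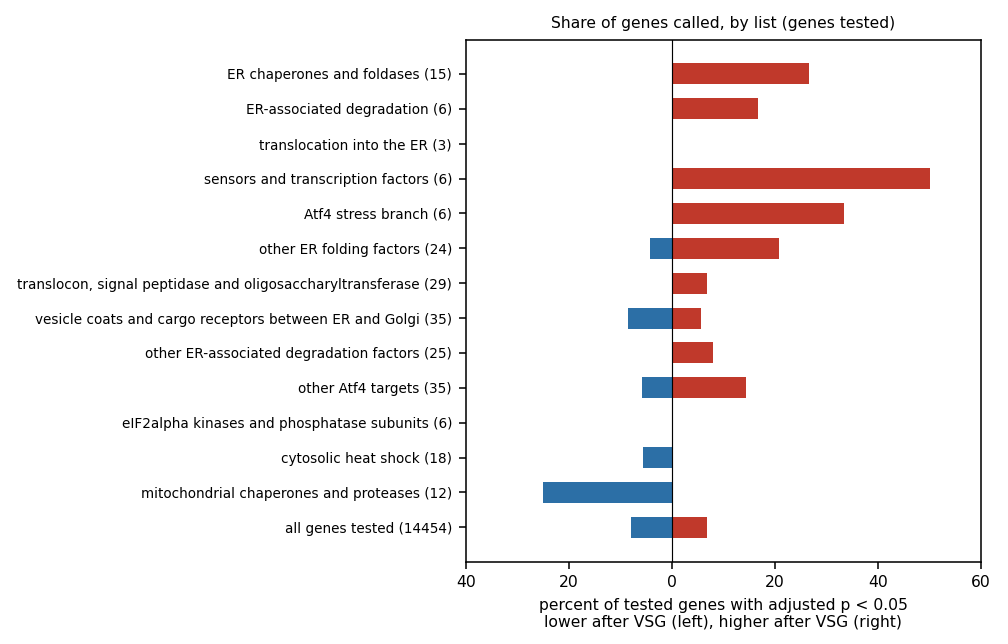
Percent of tested genes in each list that were higher (right) or lower (left) after VSG at an adjusted p under 0.05 by edgeR, with the number tested in brackets and all genes tested in the last row. The upper 5 rows are the 36 genes, which have bars to the right only, and the 3 translocation genes and 6 eIF2α kinase and phosphatase genes have no bar.

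Markers of other cells were measured beside these genes, because blood and immune cells use the same ER machinery. The libraries carried the labelled tissue's defining marker, with albumin (Alb) at 35829 to 81833 CPM, and of 8 hepatocyte markers 0 were called by edgeR, 2 had an unadjusted p under 0.05, and DESeq2 called 1 higher and 1 lower. All 12 neutrophil and myeloid precursor markers rose, and their summed CPM was 15.3, 2.92 and 5.13 in sham and 1895, 156 and 873 in VSG livers. The number of them called was 9 without sham replicate 1, 2 without sham replicate 2, 1 without sham replicate 3 or VSG replicate 6 and 4 with limma-voom. Of 8 macrophage markers 4 rose, with sums of 729.6, 345 and 509 CPM in sham and 2165, 742 and 1376 CPM after VSG, and 0 rose without sham replicates 2 or 3 or VSG replicate 6 and 2 without VSG replicate 4. Of 10 tested plasma cell markers 7 rose and 0 fell, and 5 to 7 rose with 1 library left out. Without Sdc1, which hepatocytes also express and which stood at 132 to 160.3 CPM in every library, their summed CPM was 43.4, 42.3 and 43.5 in sham and 389, 288 and 361 in VSG livers. Jchain, the joining chain of secreted antibodies, had 2.33, 2.65 and 2.20 CPM in sham and 24.6, 22.5 and 23.6 CPM after VSG (log2FC 3.30, adjusted p 0.000573), and the antibody genes Ighg2c, Ighg2b and Igkc had log2FC of 3.80, 3.69 and 3.33. The plasma cell genes Mzb1 and Tnfrsf17 were at or near 0, with at most 6 counts and 2 counts in any library. Among the VSG libraries the order of the neutrophil, macrophage and plasma cell sums, VSG 4 over VSG 6 over VSG 5, was that of the chaperone mean. The means of the translocation genes and of the sensors and factors had this order too. The means of ER-associated degradation and of the Atf4 branch did not, and ran VSG 4 over VSG 5 over VSG 6. Among the sham libraries sham 1 had the highest neutrophil and macrophage sums and the lowest chaperone mean, while the plasma cell sums were nearly equal. Stellate cell markers went the other way, with 2 of 8 lower, and 0 of 7 sinusoidal endothelial markers were called by edgeR, at an unadjusted p under 0.05 too, or by DESeq2. Of 5 tested bile duct markers 1 rose (Sox9), while the other 4 had a negative log2FC and were not called. The median of the 5 was -0.76. The 1 tested pancreatic acinar marker, Cela1, fell from 8.20, 8.27 and 8.89 to 4.98, 5.73 and 3.91 CPM. With 1 library left out 0 to 4 stellate markers were lower, Sox9 was called only without VSG replicate 4 or 5, and Cela1 only without VSG replicate 5. The part of these cells in the values of the 36 genes was not tested.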

How the data were processed

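The authors deposited unnormalised read counts for each gene, made from strand-specific poly(A) libraries of 6 livers. Per the labels and the study's methods, reads were checked with FastQC 0.10.1, aligned with STAR 2.6.0 to mm10 and counted with featureCounts (2.0.3 in the submitters' processing notes). Which annotation, strand setting and rule for multi-mapping reads were used is not given in the sources used here, so genes with overlapping or antisense exons are uncertain. The deposited table also gave each gene's summed exon length in bases, used for FPKM. Identifiers were matched to GENCODE M21, with 54487 of 55385 equal in identifier and version, and where a symbol had 2 entries (Ddit3, whose other entry had 0 counts) the longer was used. Symbols of 3 listed genes were matched through RefSeq synonyms.

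The fit used edgeR 4.0.16 (R 4.3.3) with filterByExpr (minimum count 10, minimum total 15), TMM factors, a quasi-likelihood model with group as the only term and Benjamini-Hochberg adjustment over 14454 genes at 0.05. The script was tested on simulated data. SE was taken as the absolute log2 fold change over the root of the F statistic. A count of 3, the floor, was 0.124 to 0.132 CPM, a limit for counting error alone, because the reads carry no molecular identifiers. Alternatives were DESeq2 1.42.0, limma-voom (limma 3.58.1), RLE factors, total counts, no filter, at least 10 counts in every library and leaving out each library in turn. Groups and replicate numbers came from the sample titles. P-values measure the spread between the 6 animals of 1 experiment. All 36 genes are named. From the other lists up to 3 genes per direction with an adjusted p under 0.05 and a mean of at least 5 CPM were named, by size of change. The neutrophil, macrophage and stellate cell lists were given by counts or sums only, without named genes. Uggt1, Ppib, Eprs, Tars, Hspb1, Acnat2, Pan2, Acacb, Jchain, Mzb1, Tnfrsf17 and Sdc1 were added after their values were seen, as was the plasma cell sum without Sdc1. Members, groups and lists were chosen with earlier results of these data known. ERSE, ERSE-II, UPRE and CARE were searched in the RefSeq promoter table. Protein sequences were not used here.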

Additional observations from a re-analysis of the deposited data

How the results depend on the processing

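Of 14454 genes 2118 were called, against 3270 with DESeq2 and 159 to 2732 with 1 library left out. The fewest were called without sham replicate 3 (159) or VSG replicate 6 (210), and the most without VSG replicate 5 (2732). Of the 36 genes 10 were called, all higher, against 18 (18 higher) with DESeq2 and 6 (6 higher) with total counts, and 1 to 20 with 1 library left out (1 to 19 higher, 0 to 1 lower). The single lower calls were Herpud1 without sham replicate 1 and Creb3l3 without VSG replicate 5. Folding and secretion genes called numbered 5, against 12 with DESeq2, 3 with total counts and 0 to 13 with 1 library left out. Atf4 branch genes called numbered 2, against 1 with limma-voom, 1 with total counts and 0 to 3 with 1 library left out. The cause of these moves was not tested, apart from the fewer samples in each fit with a library left out. Among the alternatives listed in the processing, the medians stayed positive, from 0.43 to 0.72 for folding and secretion and from 0.40 to 0.76 for the Atf4 branch. The difference of the 2 branch means, which a scaling factor per library cannot move, stayed negative with each library left out, from -0.94 to -0.50, but it turned to 0.13 without Asns, a choice made after seeing the data. The sign turned for Ddit3 without sham replicate 3 (0.15), VSG replicate 5 (0.04) and VSG replicate 6 (0.05), and for Ppp1r15a without sham replicate 2 (0.03) and VSG replicate 4 (0.12). With 1 library left out their log2 fold changes ran from -0.48 to 0.15 and from -0.20 to 0.12, and neither gene was called in any of these fits. Over the other results for single genes, 362 kept direction and side of the threshold, 44 lost the call and 21 gained it. No paired analysis was possible because the groups share no replicate numbers. The lowest counts among the 36 genes were 11 for Derl3 and 14 for Asns, each in a sham library.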
